A study of Rattus norvegicus with 8 samples.

Results

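The transcripts of neutrophil granule proteins and of the calgranulins were followed in liver by the probes whose gene name on the array was S100a8, S100a9, Defa5, Np4, Mpo, Elane, Camp, Cebpe or Mmp8. Of these 9 names 8 had a probe, 1 each, among 30367 probes in all, and 5 of them were measured well enough to be tested among 14905 genes. Defa5 had no probe under its own name. A probe listed under the older name Defa carries an accession that RefSeq now gives to Defa5, and its values are given alongside, outside the 8.

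Livers came from 8 Wistar rats aged 21 days. The 4 control animals (1 male, 3 female) were born to dams on standard food, and the 4 deficient animals (2 male, 2 female) to dams whose diet held no vitamin B12 or folate from a month before pregnancy until the pups were weaned. The labels name no litters, some animals may be littermates, and the p-values cover only how these 8 animals vary. Each of 4 two-colour arrays held 1 control and 1 deficient liver: control 1 with deficient 3 on array 1, control 3 with deficient 1 on array 2, control 2 with deficient 4 on array 3, and control 4 with deficient 2 on array 4. The deficient liver was labelled with Cy3 on arrays 1 and 3 and with Cy5 on arrays 2 and 4. Levels are log2 normalized intensities, differences are deficient minus control on that scale with the standard error (SE) of the limma fit, and n = 4 animals in each group throughout.

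Neutrophils are short-lived white blood cells that carry their antimicrobial proteins ready made in granules. Primary granules form first, in promyelocytes, and hold myeloperoxidase, elastase and alpha-defensins. Secondary and tertiary granules form later and hold cathelicidin, lactoferrin and the collagenase and gelatinase enzymes. S100A8 and S100A9, the calgranulins, pair in the cytoplasm as calprotectin, which binds calcium and zinc and acts as an inflammatory signal outside the cell. Granule protein transcripts are made mostly while the cells mature in the marrow, and the liver itself is a site of blood formation before and shortly after birth in rodents.

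Median spot signals were between 152.5 and 299 over median backgrounds of 33 to 58, and 59.1% to 65.5% of spots were well above background. All 12 hepatocyte markers listed were well above background in every liver. The liver of deficient 3 also carried skeletal muscle transcripts: the median difference of 16 muscle probes was 2.15 on array 1 and between -0.04 and 0.08 on the other arrays. The spread of log2 differences over genes was widest on array 2 (SD 0.57) and narrowest on array 1 (SD 0.31). Among the 12 neutrophil markers listed, S100a8, S100a9 and Camp were well above background in every liver, Mpo in 5, and the other 8 (Elane, Prtn3, Ctsg, Ltf, Ngp, Mmp8, Csf3r and the probe of Cxcr2) in none. Most defining neutrophil transcripts were therefore not measurable in these livers, and the results rest on a few brighter ones.

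The probes of the genes that carry the results are shown because the alpha-defensin genes are close copies of each other. Each probe has 60 bases. Capitals mark the longest unbroken run that a defensin probe shares, on the same strand, with any of the other 10 alpha-defensin probes. It was 8 bases for Np4, Defa and RatNP-3b and 10 for Defa10. Likeness broken by mismatches is not marked. Past the capitals, Defa resembles the Defa11 probe and RatNP-3b the Defa10 probe, so these lengths do not show that the probes are separate.
S100a8: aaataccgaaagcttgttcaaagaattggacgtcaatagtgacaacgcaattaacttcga
S100a9: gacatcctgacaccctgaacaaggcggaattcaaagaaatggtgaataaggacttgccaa
Camp: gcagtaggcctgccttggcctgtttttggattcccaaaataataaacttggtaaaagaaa
Np4: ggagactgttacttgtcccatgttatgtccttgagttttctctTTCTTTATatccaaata
Defa: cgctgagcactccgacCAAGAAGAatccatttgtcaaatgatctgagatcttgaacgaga
RatNP-3b: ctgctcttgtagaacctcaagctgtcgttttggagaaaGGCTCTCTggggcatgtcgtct
Defa10: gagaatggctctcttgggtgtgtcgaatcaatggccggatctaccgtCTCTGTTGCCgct
On the rn4 build the S100a8 probe lies at chr2:182962328-182962387 on the plus strand and the S100a9 probe at chr2:182987647-182987706 on the minus strand, 25.3 kb apart. Camp lies at chr8:114214914-114214973 (minus). The 11 alpha-defensin probes span 310.6 kb of chromosome 16, with Defa at chr16:75024441-75024500, Np4 at chr16:75284706-75284765, Defa10 at chr16:75304742-75304801 and RatNP-3b at chr16:75335083-75335142, all of these on the minus strand. Mpo lies at chr10:76094059-76094118 (plus), Cebpe at chr15:32788045-32788104 (minus), Mmp8 at chr8:4410891-4410950 (plus), and Elane at chr7:11330273-11330751 (minus), where the probe covers a span of 479 bases and so matches the genome in pieces. Exons and untranslated regions of that build were not used here. Full transcripts were not compared, so signal from near-identical defensin copies on one probe cannot be told apart.

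The question of the comparison was how the dam's diet without methyl donors bears on transcripts in the pups' livers. S100a8, S100a9, Np4 and Camp fell in the deficient livers, to between 38.4% and 64.6% of the control level, while Mpo showed no detectable difference and Elane, Cebpe and Mmp8 stayed at background in both groups. Thus 4 of the 5 tested members were called lower by limma at an adjusted p under 0.05 and 0 higher, beside 6.58% of all genes lower and 4.53% higher. Each of the 4 was well above background in all 8 livers, so that none of them entered the test through the control livers alone. The median difference of the 5 tested members was -0.72, against 0.01 over all genes tested. The members were chosen with earlier results of these data known, so neither the count nor this median tests them against all genes. The calls depend on leaving out spots in high local background, a step chosen after results were seen. With those spots kept, Np4 was called (limma adjusted p = 0.045). S100a8, S100a9 and Camp then were not (limma adjusted p = 0.101, 0.0862 and 0.121). In bulk liver, fewer cells of a type and less RNA per cell cannot be told apart.

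**Figure D1:**
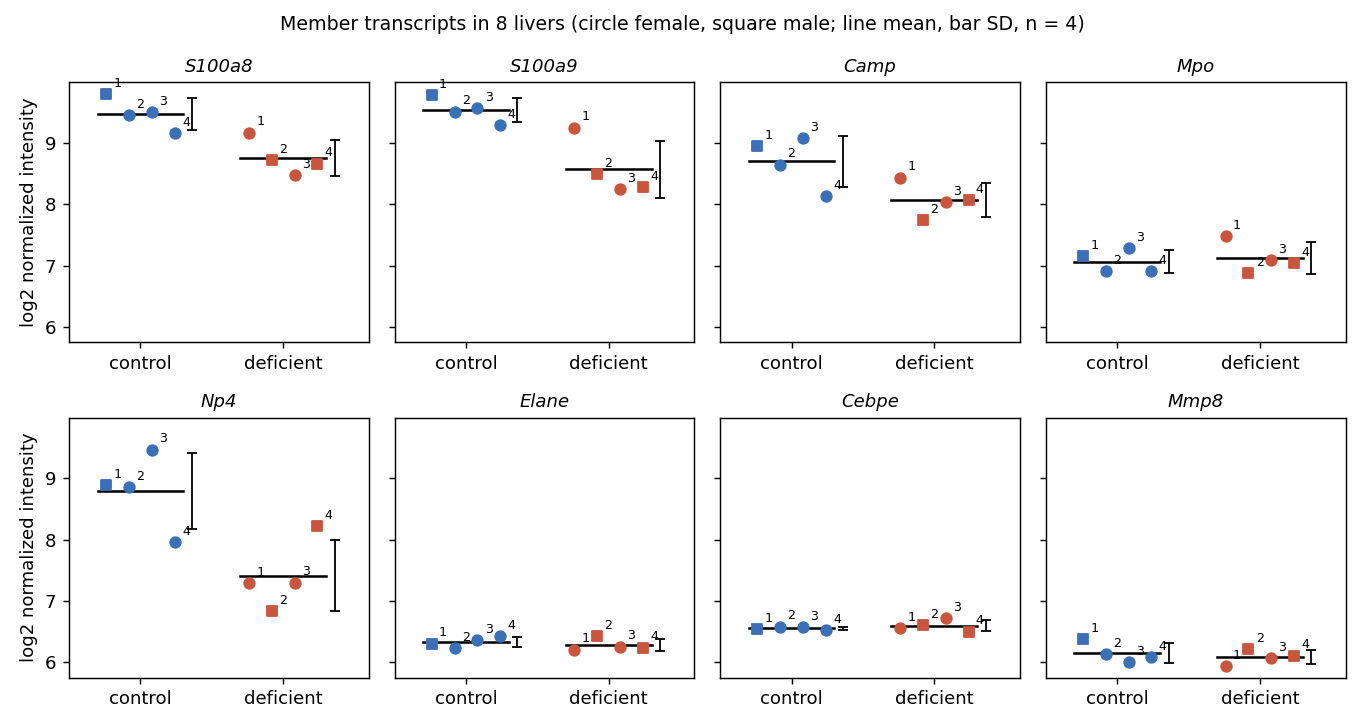
Level of each member (log2 normalized intensity, y axis) in the 4 control and 4 deficient livers; numbers beside points are replicates, circles females, squares males, lines group means and bars SD. S100a9 shows no overlap between the groups, S100a8, Camp and Np4 overlap by 1 pair of animals each, and Mpo, Elane, Cebpe and Mmp8 lie low in both groups. How many other genes keep the groups apart was not counted.

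Of the 4 called members, the calgranulins had the smallest errors. S100a9 stood at 9.79, 9.51, 9.57 and 9.30 in controls 1 to 4 and at 9.25, 8.49, 8.25 and 8.28 in deficient livers 1 to 4. Every deficient liver was below every control liver, although deficient 1 came close to control 4. The share of all genes whose groups lie apart in this way was not counted. S100a9 differed by -0.97 ± 0.13 (limma adjusted p = 0.00453), or 51.0% of the control level. S100a8 stood at 9.80, 9.46, 9.50 and 9.16 in the controls and at 9.17, 8.72, 8.47 and 8.67 in the deficient livers. The groups met at a single point, deficient 1 being level with control 4. S100a8 differed by -0.72 ± 0.11 (limma adjusted p = 0.00663), or 60.6% of control. Both partners of calprotectin thus ranked the same animals at the ends: control 1 highest and control 4 lowest among controls, deficient 1 highest and deficient 3 lowest among deficient livers.

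The calgranulin differences had one sign on every array. S100a9 differed by -1.54, -0.31, -1.23 and -0.81 on arrays 1 to 4, and S100a8 by -1.33, -0.33, -0.79 and -0.44. For both genes the larger differences were on arrays 1 and 3, where the deficient liver was in Cy3. The dye is a term of the fit, and arrays 1 and 3 also held different animals. Array 1, with the largest difference for both, held deficient 3, the liver that carried muscle transcripts. Its part in these differences was not tested. Without deficient 3 the differences were -0.65 for S100a8 and -0.91 for S100a9. Without control 3 the S100a8 difference was -0.68 (limma adjusted p = 0.053), and without any other single animal or array both genes kept their call. With the spots in high local background kept, S100a8 was at -0.55 (limma adjusted p = 0.101) and S100a9 at -0.69 (limma adjusted p = 0.0862).

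**Figure D2:**
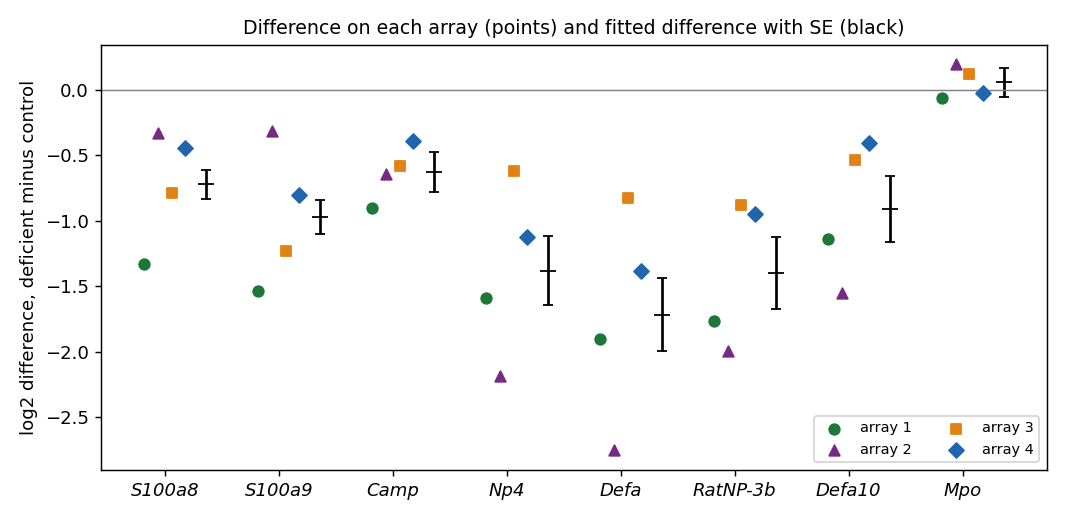
Difference between the deficient and the control liver of each array (points, log2, y axis) and fitted difference with its SE (black) for the tested members and 3 other alpha-defensin probes. S100a8, S100a9, Camp, Np4, Defa, RatNP-3b and Defa10, which was not called, lie below 0 on all 4 arrays, and Mpo lies on both sides of 0. How many other genes keep one sign on all 4 arrays was not counted.

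Of the primary granule members with signal, the alpha-defensin Np4 was called lower and Mpo was not called. Np4, which encodes the neutrophil peptide NP-4, stood at 8.89, 8.85, 9.47 and 7.96 in controls 1 to 4 and at 7.29, 6.83, 7.30 and 8.23 in deficient livers 1 to 4. Control 4 was the lowest control and deficient 4 the highest deficient liver, and only these 2 animals made the groups overlap. The difference was -1.38 ± 0.26 (limma adjusted p = 0.015), or 38.4% of control, with -1.59, -2.18, -0.62 and -1.13 on arrays 1 to 4. Its spread within groups (SD 0.62 and 0.59) was wider than that of the calgranulins. Without control 1, 2 or 3 in turn the call was lost (limma adjusted p = 0.071, 0.0514 and 0.0888), and likewise without array 1, 2 or 3 (0.0817, 0.0613 and 0.0534), with the difference between -1.12 and -1.62. With the scanner software's processed signals in place of the mean signals it was -2.09.

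The other alpha-defensin probes with signal in every liver ranked the controls in the same order as Np4. In these, deficient 4 was highest and deficient 2 lowest among the deficient livers. Defa, the probe of the gene now called Defa5, stood at 9.57, 9.42, 10.19 and 8.64 in the controls and at 7.44, 7.25, 7.67 and 8.59 in the deficient livers. No deficient liver reached the lowest control, although deficient 4 came close to control 4, and how many other genes keep the groups apart was not counted. Defa differed by -1.72 ± 0.28 (limma adjusted p = 0.0082), or 30.4% of control. Which cells gave the Defa signal was not measured. RatNP-3b, a neutrophil defensin like Np4, stood at 9.27, 9.11, 9.62 and 7.96 in the controls and at 7.62, 7.01, 7.51 and 8.23 in the deficient livers. Again only control 4 and deficient 4 overlapped. RatNP-3b differed by -1.40 ± 0.27 (limma adjusted p = 0.0161), a call lost without control 1, 2 or 3 (0.0748, 0.0537 and 0.094) and without array 1, 2 or 3 (0.0844, 0.0606 and 0.0685). Defa10 missed the threshold at -0.91 ± 0.25 (limma adjusted p = 0.0514). Of the 11 alpha-defensin probes, 4 were well above background in every liver and 3 of these were called lower. Defa7, above background in 2 control and 3 deficient livers, differed by -0.09 ± 0.08 (limma adjusted p = 0.507).

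**Figure D3:**
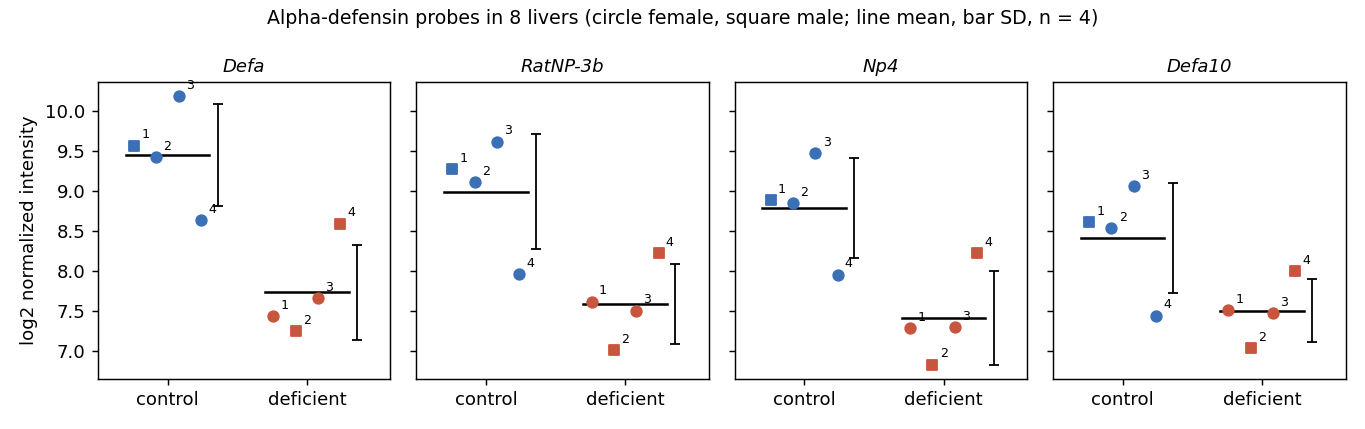
Level of the 4 alpha-defensin probes with signal in every liver (log2 normalized intensity, y axis), drawn as in the plot of members. In each panel control 3 is the highest control, control 4 the lowest control and deficient 4 the highest deficient liver.

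Myeloperoxidase, the enzyme that makes hypochlorous acid and the most abundant protein of primary granules, was near the limit of measurement. Mpo stood at 7.15, 6.91, 7.29 and 6.91 in the controls and at 7.48, 6.88, 7.09 and 7.03 in the deficient livers, so the groups overlapped throughout. It was well above background in 2 control and 3 deficient livers and differed by 0.06 ± 0.11 (limma adjusted p = 0.78). Its sign changed between arrays (-0.07, 0.20, 0.12 and -0.03). Elane, the neutrophil elastase gene, was not well above background in any liver, at 6.22 to 6.43 in controls and 6.21 to 6.42 in deficient livers, and has no fold.

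Camp, the cathelicidin of secondary granules, stood at 8.95, 8.65, 9.08 and 8.14 in controls 1 to 4 and at 8.44, 7.74, 8.04 and 8.06 in deficient livers 1 to 4. The groups overlapped only by control 4 and deficient 1. Camp differed by -0.63 ± 0.15 (limma adjusted p = 0.0345), or 64.6% of control, and was lower on all 4 arrays (-0.91, -0.64, -0.58 and -0.39). This was the least stable of the 4 calls: 8 of 12 leave-outs lost it, with limma adjusted p = 0.144, 0.077 and 0.182 without control 1, 2 and 3, and 0.0768 and 0.0968 without deficient 3 and 4, the others being arrays 1, 2 and 3. Mmp8, the neutrophil collagenase of the same granules, was not well above background in any liver (mean 6.15 in controls, 6.08 in deficient livers). Cebpe, the transcription factor needed for secondary granule genes in maturing granulocytes, was likewise not well above background (mean 6.55 and 6.59).

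Set against their local background, the spots before any normalization showed the same division. The S100a8 spot was 15.3 to 18.3 times its local background in controls and 7.10 to 12.4 times in deficient livers. The Np4 spot was 8.02 to 15.6 times and 1.85 to 5.95 times its background, and the Camp spot 8.77 to 13.9 and 4.35 to 5.35 times. These ratios did not overlap between the groups, but how many other probes keep the groups apart in this way was not counted. They are not corrected for dye or array, and median backgrounds were 56.5 to 58 in Cy5 and 33 to 39 in Cy3. The spot signals alone overlapped for S100a8 (733 in deficient 2, 586 in control 4) and for Camp (341 and 276). Mpo was at 2.42 to 3.42 and 2.53 to 3.10 times background, and the Elane spot at 1.28 to 2.36 and 1.19 to 1.82 times. The members with no measured difference were thus also the dimmest, and for Elane, Cebpe and Mmp8, at background in the controls, a fall could not be measured.

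**Figure D4:**
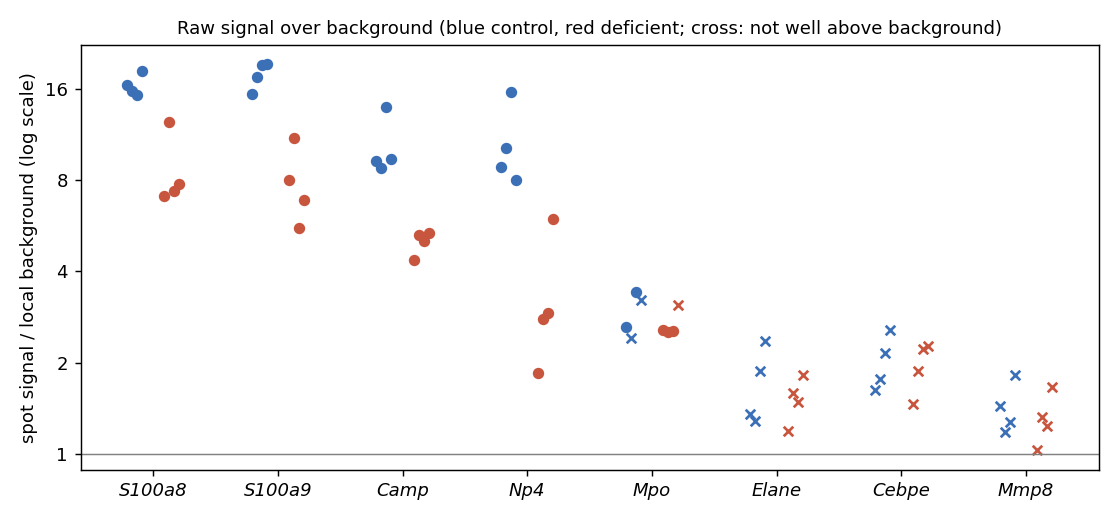
Spot signal divided by local background (y axis, log scale) for each member in control (blue) and deficient (red) livers; crosses mark spots not well above background. S100a8, S100a9, Camp and Np4 lie apart by group, and Elane, Cebpe and Mmp8 carry crosses in all 8 livers. How many other probes lie apart by group was not counted.

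By sex, the differences of the 4 called members kept their sign. In females (3 control, 2 deficient) the means differed by -0.71 for S100a9, -0.55 for S100a8, -1.47 for Np4 and -0.38 for Camp. In males (1 control, 2 deficient) they differed by -1.40, -1.11, -1.36 and -1.04. The male values rest on 1 control animal, and the difference between the sexes was not tested. In a fit of the females alone 0 of the 4 genes were called.

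The wider gene lists place the members among other transcripts listed for neutrophils, some of which hepatocytes or macrophages also make. The 5 lists of granule, S100, transcription factor and mature neutrophil genes name 96 genes, of which 90 had a probe and 48 were tested. Limma called 11 lower, the 4 called members among them, and 1 higher, with a median difference of -0.11. Over all genes 6.58% were called lower and 4.53% higher. The lists were written with earlier results of these data known, so the counts do not test them against all genes. Without control 1, 2 or 3 the count called lower was 5, 6 and 3. The share of all genes called lower also moved: it was 2.78%, 2.25%, 1.28% and 4.42% without controls 1 to 4 in turn. It was 5.61%, 12.9%, 6.38% and 1.87% without deficient 1 to 4, and 4.39%, 3.24%, 0.798% and 11.2% without arrays 1 to 4.

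Of the 9 tested genes listed for primary granules 3 fell and 0 rose, all 3 being the defensins above. The count that fell was 1 without control 1, 2 or 3, 0 without array 1 and 5 without deficient 2. Prtn3, Ctsg and Bpi, which encode proteinase 3, cathepsin G and a bactericidal lipopolysaccharide-binding protein, were not well above background in any liver. Of the 10 tested secondary and tertiary granule genes 5 fell and 0 rose (median -0.57): Camp, Hp, Slpi, Orm1 and Arg1. The count was 1 without control 1 or control 3, 2 without control 2 or deficient 4, and 3 without deficient 1. Slpi, an inhibitor of elastase, differed by -0.91 ± 0.15 (limma adjusted p = 0.00944). Hp (haptoglobin, -0.77), Orm1 (orosomucoid, -1.12) and Arg1 (arginase, -0.80) are made in quantity by hepatocytes, so their fall is not a measure of granulocytes alone. Lcn2, the granule lipocalin, differed by 0.45 ± 0.24 (limma adjusted p = 0.264). Ltf, Ngp and Mmp9 were not well above background.

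Of the 10 tested S100 genes 3 fell and 0 rose (median -0.17), beside 6.58% of all genes called lower and 4.53% higher. Without control 3 the count that fell was 1, and 1.28% of all genes were called lower. The gene called besides S100a8 and S100a9 was S100g, the calcium-binding protein calbindin-D9k, at -1.13 ± 0.17 (limma adjusted p = 0.00626). Of the 8 tested granulocyte transcription factors 0 fell and 1 rose, Lef1, at 0.46 ± 0.12 (limma adjusted p = 0.0452). Another 2 probes of Lef1, not well above background in any liver, read -0.23 and -0.07, and 15 of 26 alternatives lost the call, among them those without control 1, 2, 3 or 4 or without deficient 1 or 4. Cebpa, which drives granulocyte commitment and also works in hepatocytes, differed by -0.48 ± 0.14 (limma adjusted p = 0.0585). Of the 11 tested genes of the mature neutrophil surface and oxidase, limma called 0 at either adjusted or unadjusted p under 0.05, and their median was 0.06. Among these, Itgam (an integrin of neutrophils and macrophages) differed by 0.12 and Ncf1 (an oxidase subunit) by 0.11. The receptors most particular to neutrophils, Csf3r, Cxcr1 and Cxcr2, were not well above background in any liver.

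Signals around these proteins were read in the same way. Of the 15 tested genes of calgranulin receptors and their signalling 1 rose and 0 fell: Cd14, the co-receptor of Tlr4, at 1.38 ± 0.09 (limma adjusted p = 0.000469). Of the 10 tested genes for neutrophil supply and recruitment 1 fell, Csf1, a growth factor of macrophages, at -0.35 ± 0.07 (limma adjusted p = 0.0199), and 0 rose. That list had 0 calls without any 1 of the 4 controls or without deficient 4, and 4 without deficient 2. Of all genes 6.58% were called lower and 4.53% higher, and 12.9% were called lower without deficient 2. The single calls of these 2 lists are thus near the shares over all genes.

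**Figure D5:**
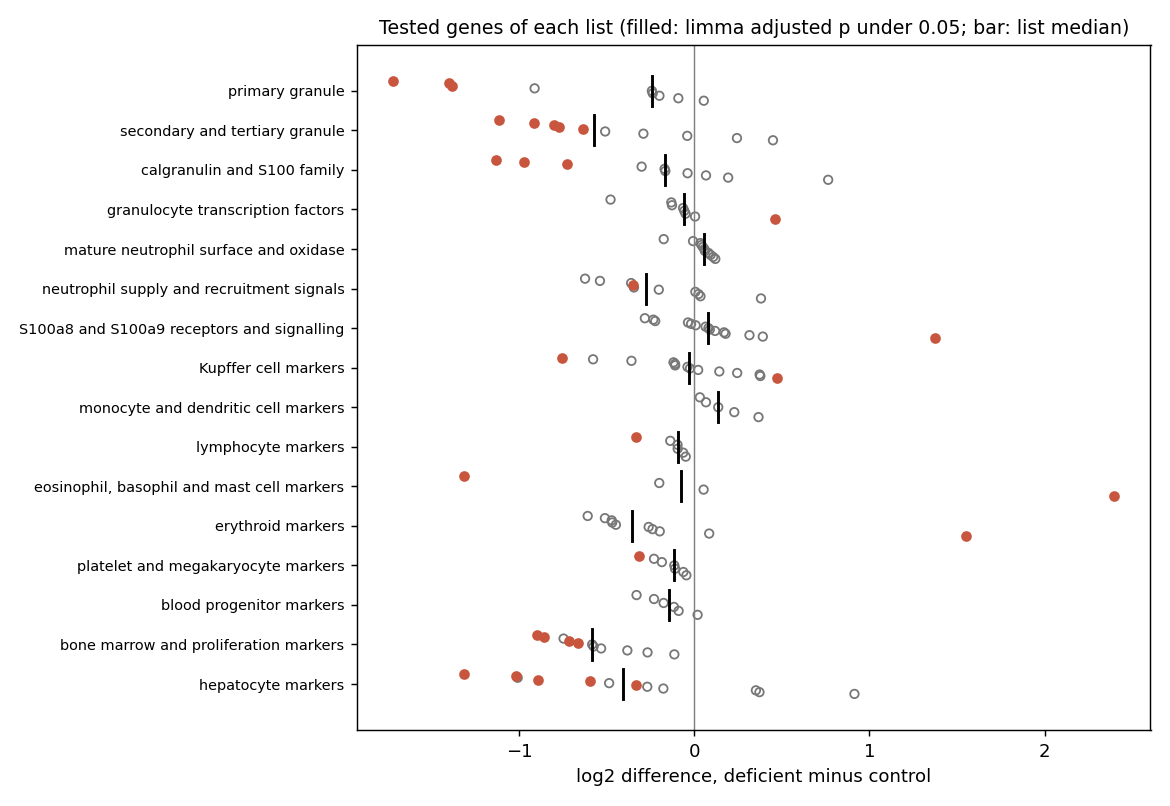
Log2 difference (x axis) of every tested gene in each list (rows); filled points passed limma's threshold and bars are list medians. Called genes of the granule and S100 rows all lie below 0, and the mature neutrophil row has no filled point.

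Markers of other cells of blood and liver were read beside the members. Of 14 tested Kupffer cell markers 1 fell (Slc40a1, -0.76) and 1 rose (Msr1, 0.48). Their mean level, taken over the tested genes in each liver, was 10.44 to 11.04 in controls and 10.16 to 10.90 in deficient livers. Of 5 tested monocyte and dendritic cell markers 0 were called and 0 had an unadjusted p under 0.05 (10.04 to 10.66, and 10.15 to 10.89). Of 6 tested lymphocyte markers 1 fell (Cd3g, -0.33), with mean levels of 7.47 to 7.94 and 7.50 to 7.64. Of 10 tested erythroid markers 0 fell and 1 rose (Tfrc, the transferrin receptor, 1.55), but 8 lay below 0, with a median of -0.35, and 3 of these had an unadjusted p under 0.05. These were Eraf, which stabilises alpha-globin (-0.61, limma adjusted p = 0.0607), Slc4a1, the red cell anion exchanger (-0.51, 0.0729), and Car1, a carbonic anhydrase (-0.24, 0.134), each lower on all 4 arrays. The mean erythroid level was 12.04 to 12.44 in controls and 11.61 to 12.36 in deficient livers, and without deficient 1 the count called lower was 2. Of 4 tested markers of eosinophils, basophils and mast cells, Mcpt8, a basophil protease in rodents, fell by 1.31 and Hdc rose by 2.40; 10 of the 16 with a probe were at background in every liver. Of 7 tested platelet markers 1 fell (Gp9, -0.32). Of 6 tested progenitor markers 0 were called and 0 had an unadjusted p under 0.05. Of 11 tested proliferation genes 4 fell (Tk1, Aurka, Ccna2 and Top2a) and 11 lay below 0. Their median difference was -0.58, with mean levels of 10.25 to 10.80 against 9.20 to 10.25. That count of 4 was 0 without control 1, control 3 or deficient 4, 2 without control 2 or control 4, and 10 without deficient 2. Over all genes 1.28% were called lower without control 3, 1.87% without deficient 4 and 12.9% without deficient 2, beside 6.58% with every animal. The part of these cells, of residual blood and of proliferation in the fall of the members was not tested. Of 12 hepatocyte markers 5 fell and 0 rose. The count that fell was 3 without control 2 or deficient 4, 2 without control 3, 8 without deficient 2 and 0 without array 3. Over all genes 0.798% were called lower without array 3. Without control 3 the lists of Kupffer cells, lymphocytes and platelets had 0 genes called lower, and those of Kupffer cells, erythroid cells and mast cells 0 called higher.

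The genes closest to each member over the 8 livers were found by the root mean square of the difference between mean-centred levels, which is given in brackets. For Np4 these were the 3 defensin probes RatNP-3b (0.13), Defa (0.19) and Defa10 (0.28). For S100a9 they were Tmem86a (0.11), S100a8 (0.18) and C4bpb (0.20), and for S100a8 Tmem86a (0.08), C4bpb (0.14) and Lgr4 (0.15). C4bpb encodes a chain of the complement regulator C4b-binding protein, and it fell by 0.86 ± 0.09 (limma adjusted p = 0.0019). The distance spans both groups, so genes near a called member were picked in part for a like diet difference. Their calls are no separate evidence. For Camp they included Ppp1r14a (0.19) and the mast cell protease Mcpt10 (0.20). For Mpo they were Spag6 (0.04), Dgki (0.05) and Trim7 (0.05), with differences of 0.10, 0.05 and 0.04 (none called). No other member was among the 3 nearest of Camp.

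Promoters were read from RefSeq (build GRCr8), which gave windows of 250 bases before to 50 after the start for S100a9, Np4, Mpo, Camp, Cebpe, Mmp8 and RatNP-3b. TTNNGCAA, a core of the C/EBP site, and GAGGAAG, a core of the PU.1 site, were searched on both strands; they occur in 10.6% and 12.4% of all 33469 promoters in the table. The C/EBP letters were found in Np4, RatNP-3b and Mmp8, the PU.1 letters in Mpo and Cebpe, and neither in S100a9 or Camp. Both defensins are shown because their levels followed each other and their upstream bases are nearly the same: of 231 aligned bases in the 250 before the start, 212 (91.8%) were identical. The stretches run on the minus strand at chr16:77199643-77199792 for Np4 and chr16:77248978-77249127 for RatNP-3b, with the C/EBP letters, read as TTGCNNAA, in capitals.
Np4: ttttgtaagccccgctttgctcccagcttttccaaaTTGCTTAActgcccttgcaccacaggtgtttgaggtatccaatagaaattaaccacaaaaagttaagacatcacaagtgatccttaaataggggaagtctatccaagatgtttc
RatNP-3b: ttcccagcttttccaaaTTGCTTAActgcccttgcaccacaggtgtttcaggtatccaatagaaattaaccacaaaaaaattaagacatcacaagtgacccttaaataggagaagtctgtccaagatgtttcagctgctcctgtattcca
The match lies at position -114 from the start in Np4 and -133 in RatNP-3b. The same 8 letters stand in both, and a match of letters is not a measured binding site.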

How the data were processed

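RNA of 8 livers was hybridised to 4 Agilent two-colour rat arrays. The deposited files hold spot intensities that the authors extracted, per the submitters' processing notes, by Agilent Feature Extraction 10.7.1.1, with probe positions on rn4, per the file headers. A second table deposited by the authors holds normalized, unlogged intensities (normalization not given in the sources used here) and served as an alternative. Columns not mapped to a sample numbered 0.

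Processing and tests used limma 3.58.1 (R 4.3.3). Spots with a local background over 5 times the median of their channel were left out (74 values, a step chosen after results were seen), mean signals were corrected by normexp (offset 50), and arrays were normalized by loess and Aquantile. Spots of a probe were averaged, probes well above background in at least 4 of 8 samples were kept, and the brightest probe stood for a gene. With the offset, fold changes of dim probes are understated. Diet and dye were fitted, with a random block for the array (correlation 0.421), with Benjamini-Hochberg adjustment over 14905 genes at 0.05. In the lists, a gene was matched by the files' name or through RefSeq by accession. All arrays lay on 1 slide, and both channels of an array were found by their shared deposited data. The fit was tested on simulated data.

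Members and lists were chosen with earlier results of these data known. Genes named are the members, the up to 4 genes per list of lowest p, and the 3 nearest genes of each tested member, 1 of which is not reported here; genes named beyond these, among them the other defensins, granule genes at background and muscle transcripts, were chosen after their values were seen. Replicate numbers follow the order of the samples and pair no animals. Precision is limited by having 4 arrays.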

Additional observations from a re-analysis of the deposited data

Results flagged for a closer look

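Among 36 groups of 4 livers looked at, 1 held an animal far from the rest, where chance alone flags a few percent of groups. The Defa6 probe stood at 6.84 in deficient 4 and between 6.19 and 6.28 in the other deficient livers, a gap of 0.863 of the group's range, which is past Dixon's critical value. Defa6 was not well above background in any liver.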

How the results depend on the processing

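Each result was recomputed under 26 alternatives, 1 of them (a normexp offset of 10) chosen after seeing the data; Mpo was tested in 25 of them. No member was called higher under any. The 4 members called lower became 1 with spots in high background kept, 2 without the array block and 0 in females alone, and 1 to 4 when an animal or array was left out. The 11 genes of the wider lists became 6, 4 and 0 under the same settings, and 3 to 14 in the leave-outs. The 1656 calls over all genes became 952 with those spots kept, 1097 with processed signals, 399 without the block, 460 from within-array ratios, 810 with sex in the fit, 50 in females alone and 2689 with sample weights. They were 212 (array 3 left out) to 3542 (deficient 2 left out) in the leave-outs. For S100a8, the difference was -0.55 with those spots kept and -0.64 in females, and -0.86 to -0.59 in the leave-outs. For S100a9 it was -0.69, -0.80 and -1.13 to -0.85. For Np4 it was -1.38 (limma adjusted p = 0.0879) without the block, -1.62 in females and -1.72 to -1.12 in the leave-outs. Camp passed the threshold in 12 of 26 alternatives. It missed it at -0.49 with those spots kept, -0.77 with processed signals, -0.63 with no filter and without the block, -0.64 with sex in the fit and -0.50 in females, and lay at -0.78 to -0.49 in the leave-outs. Mpo turned to -0.027 with sample weights, and lay at -0.043 to 0.134 in the leave-outs, never called. Defa kept its call in 24 of 26 alternatives. The cause of these changes was not tested; the fits of females alone and the leave-outs hold fewer animals. Replicate numbers are in accession order and pair no animals. Taken as within-array ratios, which set the 2 livers of an array against each other, all 4 members kept their call (limma adjusted p = 0.0426 for S100a8, 0.028 for S100a9, 0.0444 for Np4 and 0.0427 for Camp). Signal near background leaves Elane, Cebpe and Mmp8 unmeasured in all 8 livers and Mpo in 3.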
